A study of Mus musculus with 48 samples.

Results

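Cyclosporin A was compared with control culture after 6 h in slices of mouse kidney kept alive outside the body. The comparison held 12 of the 48 libraries of the series, chosen by their titles: 3 control and 3 cyclosporin A libraries of C57BL/6J and the same numbers of DBA/2J. All came from male mice of 2 inbred strains that carry no engineered allele in the labels, and the labels name these strains as founders of the BXD consortium. Control and treated slices shared strain, sex, tissue, culture and time, and differed in the labelled conditions by cyclosporin A alone. In the library names the control and the treated libraries formed separate blocks, so treatment goes with library order. The labels number the replicates as biological, but they do not say whether slices with the same number came from 1 mouse. The dose and the vehicle of the drug are not given in the sources used here. P-values measure the spread between libraries. The question put to the slices was how a nephrotoxic drug changes the kidney transcriptome ex vivo, and here the single genes, the gene lists and the largest effect that each interval still allows were read.

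Cyclosporin A enters cells and binds cyclophilins, which are peptidyl-prolyl isomerases. The drug-cyclophilin complex blocks calcineurin, the calcium-dependent phosphatase that sends NFAT transcription factors to the nucleus, and this is how it suppresses T cells. In the kidney the drug is known for constriction of the afferent arteriole, salt retention and magnesium loss in the distal tubule, tubular injury and, with long use, interstitial fibrosis.

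Total counts of the 12 libraries ran from 16330120 to 21895766. Of 55487 gene IDs, 16538 passed the filter on low counts and were tested. The tissue label was checked with marker lists: all 16 proximal tubule markers were tested, with a summed level of 11912 to 21821 CPM (each library's counts scaled to a common total) in C57BL/6J controls and 25530 to 31556 CPM in DBA/2J controls. Under cyclosporin A that sum was 7483 to 24079 CPM in C57BL/6J and 23657 to 32119 CPM in DBA/2J, so the C57BL/6J libraries differed more among themselves than by treatment. Of 8 adipocyte markers 1 was tested, and Cfd and Lep had no count in any of the 12 libraries.

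No gene met the adjusted threshold for the mean effect over both strains: 0 of 16538 (0%) had a Benjamini-Hochberg adjusted p under 0.05 in edgeR's quasi-likelihood test, and the smallest adjusted p was 0.336. By limma-voom the count was also 0. An unadjusted p under 0.05 was reached by 207 genes with a higher level (1.25%) and 527 with a lower level (3.19%). DESeq2's Wald test on the same genes called 51 (0.308%), 7 higher and 44 lower. On CPM scaled by TMM factors, for 25 genes (0.151%) every treated library of each strain lay above all controls of its strain, and for 67 genes (0.405%) every treated library lay below them.

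The fit bounded most effects closely. The 95% interval of the log2 fold change lay inside ±1, that is within 2-fold, for 14755 genes (89.2%), and within 1.5-fold for 12066 genes (73.0%). The median half-width was 0.25 on the log2 scale, a factor of 1.19. It was 0.18 for the 6976 genes with a mean log2 CPM of 4 to 7, of which 99.1% lay within 2-fold, and 0.71 for the 3275 genes under 1, of which 54.1% did. For 16 of 16538 genes the whole interval lay beyond 1.5-fold. The intervals are not adjusted for the number of genes, and 0 genes had an edgeR adjusted p under 0.05.

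The genes of the drug's own pathway showed no call. Of 20 calcineurin and NFAT genes 19 were tested, and 0 reached an unadjusted p under 0.05. Their median log2 fold change was -0.01, against -0.001 over all genes tested. All 19 intervals lay within 2-fold and 17 within 1.5-fold. Ppp3ca, the main catalytic subunit of calcineurin, was at 54.3, 52.8 and 58.5 CPM in C57BL/6J controls and at 53.2, 57.5 and 57.7 CPM under cyclosporin A, with overlapping groups. The log2 fold change of Ppp3ca over both strains was 0.02 (SE 0.06, 95% interval -0.11 to 0.14). The catalytic subunit Ppp3cb differed by 0.04 (-0.12 to 0.20), the regulatory subunit Ppp3r1 by 0.04 (-0.10 to 0.18) and the transcription factor Nfatc1 by 0.00 (-0.21 to 0.21).

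Rcan1 encodes a calcineurin inhibitor whose short form is a classical NFAT target. It was at 312, 502 and 350 CPM in C57BL/6J controls and at 432, 361 and 376 CPM under cyclosporin A. In DBA/2J the controls were at 334, 399 and 316 CPM and the treated libraries at 311, 329 and 289 CPM. The groups overlapped in both strains, and the fitted log2 difference was -0.06 (SE 0.12, 95% interval -0.32 to 0.20, edgeR adjusted p = 1). Counts per gene do not separate the long from the short form. The RefSeq table gives Rcan1 2 starts, and the 300 bases around the internal start (250 before and 50 after it) are shown because they hold the NFAT core letters GGAAA. The window is chr16:92400029-92400328 on the minus strand of GRCm38.p6, with each match on either strand in capitals (GGAAA, or its complement TTTCC).
Rcan1 internal start: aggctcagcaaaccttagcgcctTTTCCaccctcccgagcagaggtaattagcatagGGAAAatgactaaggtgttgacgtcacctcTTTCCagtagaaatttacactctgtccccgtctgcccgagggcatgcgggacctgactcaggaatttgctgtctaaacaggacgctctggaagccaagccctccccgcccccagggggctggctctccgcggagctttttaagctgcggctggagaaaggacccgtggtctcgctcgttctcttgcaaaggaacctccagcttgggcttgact
The window has 3 matches, a number that 9.4% of 32851 promoter windows of the same length reach or exceed. At least 1 match is present in 61.3% of these windows, and the window of the upstream Rcan1 start at chr16:92466120-92466419 has 0.

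Cyclophilins, the proteins that bind the drug, were tested for all 17 members of the list. Their median was -0.01, 0 had an unadjusted p under 0.05, and all 17 intervals lay within 1.5-fold. Ppia, the cytosolic cyclophilin A, differed by -0.06 (-0.22 to 0.10). The endoplasmic reticulum form Ppib differed by -0.06 (-0.24 to 0.13), and the mitochondrial form Ppif by -0.05 (-0.24 to 0.13). Among 18 genes of drug handling 14 were tested, with a median of -0.01 and 0 at an unadjusted p under 0.05. Without replicate 2 of C57BL/6J under cyclosporin A this median was 0.13, with 10 of 14 positive, and without replicate 1 of that group it was -0.04. The efflux pump genes Abcb1a and Abcb1b, whose products carry cyclosporin A, differed by 0.14 (-0.36 to 0.64) and -0.01 (-0.45 to 0.43).

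With all 12 libraries the stress and injury lists held no member past the unadjusted threshold over both strains. All 20 genes of the unfolded protein response lay within 2-fold, with a median of 0.02 over both strains and 0 at an unadjusted p under 0.05. In C57BL/6J 18 of the 20 had a positive fold change (median 0.14), and in DBA/2J 18 of the 20 had a negative one (median -0.08). None of the 20 had an unadjusted interaction p under 0.05, so a strain difference was not shown. The count of positive members over both strains, 14 of 20, turned with single libraries: it was 3 without replicate 1 of the C57BL/6J controls (median -0.03), 5 without replicate 2 of C57BL/6J under cyclosporin A (median -0.02), 8 without replicate 2 of DBA/2J under cyclosporin A and 9 without replicate 3 of the C57BL/6J controls, and it was 18 without replicate 2 of the C57BL/6J controls (median 0.10). Hspa5, the chaperone BiP, ran from 2632 to 4779 CPM in C57BL/6J controls and from 3009 to 4713 CPM under cyclosporin A, and differed by 0.02 over both strains (-0.34 to 0.38). Ddit3, which encodes the transcription factor CHOP, differed by 0.03 (-0.24 to 0.30). The 20 NRF2 antioxidant genes had a median of 0.03, which was -0.01 with 9 of 20 positive without replicate 1 of C57BL/6J under cyclosporin A and 0.07 with 17 of 20 positive without replicate 2 of that group. Hmox1, the heme-degrading enzyme, differed by 0.04 (-0.51 to 0.58).

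The 20 tubular injury genes, of which Ccl2, Il6 and Cxcl1 are also in the cytokine list, had a median of -0.02 (0.19 for C57BL/6J alone and -0.20 for DBA/2J alone), and 0 at an unadjusted p under 0.05 over both. In DBA/2J 3 were lower at an unadjusted p under 0.05, against 379 of all 16538 genes, and 3 of 20 had an unadjusted interaction p under 0.05, against 2.46% of all genes. The median over both strains changed sign with single libraries left out, between -0.08 and 0.08. The 0 became 2 higher without replicate 2 of the C57BL/6J controls, 2 lower without replicate 2 of C57BL/6J under cyclosporin A and 1 lower without replicate 1 of the C57BL/6J controls. Havcr1, which encodes the injury marker KIM-1, was at 1.06, 1.58 and 1.24 CPM in C57BL/6J controls and 3.37, 1.18 and 1.23 CPM under cyclosporin A. In DBA/2J it was at 33.9, 19.1 and 17.7 CPM in controls and 35.6, 11.4 and 24.9 CPM under the drug. Thus the strains did not overlap at all while the treatment groups did, and the interval of the log2 fold change, -0.50 to 1.12 around 0.31, reached past 2-fold. Without replicate 1 of C57BL/6J under cyclosporin A the value was -0.01. Lcn2, the lipocalin NGAL, had an interval of -0.94 to 1.39 around 0.22, and its sign turned without replicate 1 of C57BL/6J (-0.08) or replicate 3 of DBA/2J (-0.19) under cyclosporin A, so a 2-fold rise in this marker lay within its interval.

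**Figure D1:**
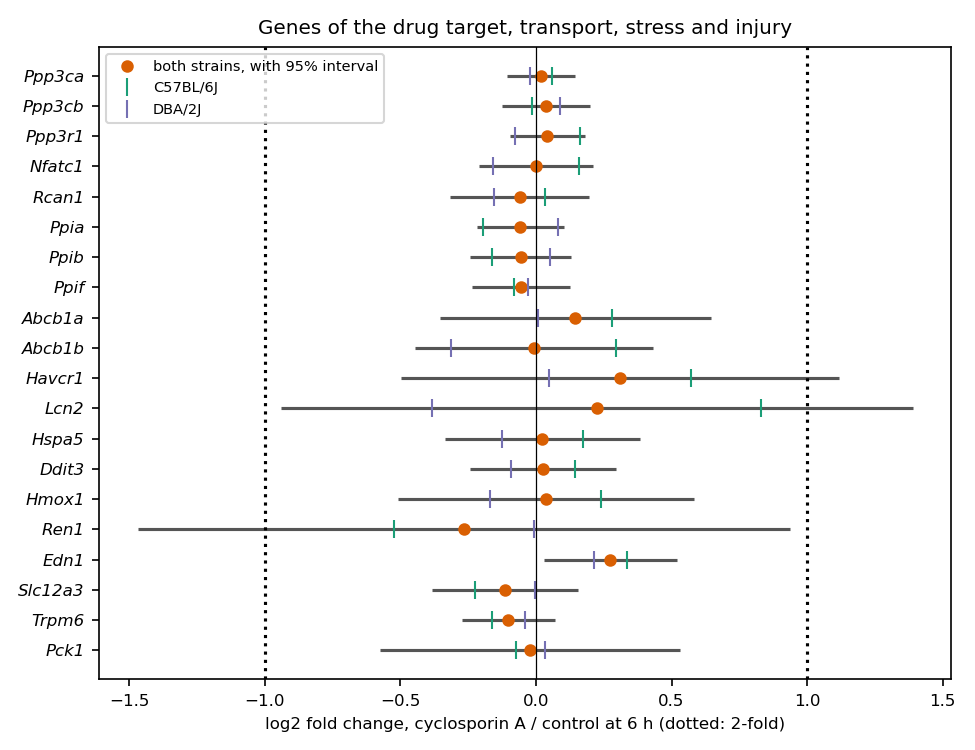
Log2 fold change of cyclosporin A over control at 6 h (x axis) for 20 genes of the drug's targets, transport, stress, injury, vascular tone and distal transport, 12 libraries. Points give the mean over both strains with the 95% interval, ticks give each strain, and dotted lines mark 2-fold; only Havcr1, Lcn2 and Ren1 among these 20 have an interval that crosses a dotted line.

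Genes of renin, endothelin and vascular tone were tested for all 18 members. Their median was -0.05, with 3 higher and 2 lower at an unadjusted p under 0.05, against 1.25% and 3.19% of all genes, and 0 called after adjustment. The number lower was 4 without replicate 2 of C57BL/6J under cyclosporin A. Edn1, the vasoconstrictor endothelin-1, was at 8.33, 11.4 and 7.40 CPM in C57BL/6J controls and at 11.3, 11.8 and 10.4 CPM under the drug. In DBA/2J it was at 7.54, 7.81 and 8.01 CPM in controls and 8.88, 9.55 and 8.21 CPM under the drug, with no overlap in that strain. The log2 fold change of Edn1 came to 0.27 (SE 0.11, edgeR adjusted p = 1). Agt, the angiotensin precursor, differed by 0.40 and Adora1, the adenosine A1 receptor, by 0.57, while the endothelin receptor Ednra differed by -0.49 and the angiotensin receptor Agtr1a by -0.42 (edgeR adjusted p from 0.787 to 0.872 for these 4). In C57BL/6J and DBA/2J Agt differed by 0.69 and 0.10, Adora1 by 1.01 and 0.13, Ednra by -0.29 and -0.68 and Agtr1a by -0.56 and -0.28. An unadjusted interaction p under 0.05 was reached by 2 of the 18, against 2.46% of all genes. Ren1, renin, ranged from 68.0 to 511 CPM within C57BL/6J and from 103 to 613 CPM within DBA/2J, and its interval of -1.47 to 0.94 reached past 2-fold on the lower side. Its value of -0.27 became 0.01 without replicate 3 of the C57BL/6J controls.

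Distal salt and magnesium transport genes were all tested (24), all lay within 2-fold, and 0 had an unadjusted p under 0.05. Their median was 0.02, with 17 of 24 positive. In C57BL/6J 17 of 24 were negative (median -0.08), and in DBA/2J 20 of 24 were positive (median 0.13), while 0 had an unadjusted interaction p under 0.05. The lowest values of the 24 were those of the fixed genes. Slc12a3, the thiazide-sensitive sodium-chloride cotransporter, differed by -0.11 (-0.38 to 0.15), and Trpm6, a magnesium channel, by -0.10 (-0.27 to 0.07). The gluconeogenic enzyme gene Pck1 differed by -0.02 (-0.58 to 0.53). The lists of TFEB lysosome genes (20), CRTC and CREB targets (18) and cholesterol synthesis (24) had medians of 0.01, 0.04 and 0.03. In these 3 lists the sole member at an unadjusted p under 0.05 was Hsd17b7, an enzyme of cholesterol synthesis, at 0.19, against 1.25% of all genes higher. It differed by 0.39 in C57BL/6J and -0.01 in DBA/2J. Without replicate 1 of the C57BL/6J controls 0 members of the cholesterol list passed. Among 20 immediate early genes the median was 0.15, and Egr3, a transcription factor, reached 0.68 (SE 0.21, edgeR adjusted p = 0.777). Egr3 differed by 1.29 in C57BL/6J and by 0.07 in DBA/2J. The immediate early median was 0.30 in C57BL/6J, with 18 of 20 positive, and -0.005 in DBA/2J, with 9 of 20 positive, and 3 of 20 had an unadjusted interaction p under 0.05, against 2.46% of all genes. The number of immediate early genes higher at an unadjusted p under 0.05 was 1, against 1.25% of all genes, and it was 5 without replicate 2 of the C57BL/6J controls, 4 without replicate 1 of the DBA/2J controls and 2 without replicate 1 of DBA/2J under cyclosporin A. Their median was 0.07 without replicate 2 of C57BL/6J under cyclosporin A and 0.22 without replicate 1 of the DBA/2J controls. Of 20 cytokine and T cell activation genes 16 were tested, with a median of -0.03, and Tnf reached 0.45 (SE 0.17, edgeR adjusted p = 0.892). Ccl2, Il6 and Cxcl1, shared with the injury list, differed by -0.998, -0.96 and -0.69 in DBA/2J and by 0.23, 0.26 and 0.38 in C57BL/6J, so the strain values of these lists are not independent. The cytokine median was 0.24 in C57BL/6J and -0.15 in DBA/2J, where 3 were lower at an unadjusted p under 0.05, against 379 of all 16538 genes, and 4 of the 16 had an unadjusted interaction p under 0.05, against 2.46% of all genes. Over both strains this median turned to 0.23 without replicate 2 of the C57BL/6J controls and was -0.13 without replicate 1 of them.

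The lowest p-values belonged to genes that were lower under cyclosporin A. Igfbp3, a secreted binding protein of insulin-like growth factors (chromosome 11, 7206086 to 7213923, GRCm38), was at 638, 507 and 571 CPM in C57BL/6J controls and at 348, 387 and 300 CPM under the drug. In DBA/2J it was at 560, 538 and 595 CPM in controls and at 322, 442 and 352 CPM under the drug. All 6 treated libraries lay below all 6 controls. The log2 fold change of Igfbp3 came to -0.64 (SE 0.10, edgeR adjusted p = 0.336, DESeq2 adjusted p = 1.35e-05), and leaving out single libraries moved it between -0.70 and -0.59. Without the filter on low counts edgeR called Igfbp3 (adjusted p = 0.000605), Pla2r1 (0.0101), Itga9 (0.0265) and Peg3 (0.0455), an imprinted gene, all lower. With the filter it called Peg3 alone without replicate 2 of the C57BL/6J controls (edgeR adjusted p = 0.0107).

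Pla2r1, a receptor for secreted phospholipases (chromosome 2, 60417543 to 60553308), was at 30.9, 27.2 and 30 CPM in C57BL/6J controls and at 20.3, 21.6 and 16.7 CPM under the drug. Its DBA/2J controls were at 27.2, 25.8 and 27.1 CPM and the treated libraries at 13.5, 19.2 and 19.8 CPM. Again no treated library reached a control, and the log2 fold change of Pla2r1 came to -0.57 (SE 0.10, edgeR adjusted p = 0.336, DESeq2 adjusted p = 0.00137). Col14a1, a collagen that associates with fibrils in the matrix (chromosome 15, 55307750 to 55520803), was at 137, 76.5 and 124 CPM in C57BL/6J controls and at 51.2, 53.0 and 45.1 CPM under the drug. In DBA/2J the Col14a1 controls were at 188, 120 and 141 CPM and the treated libraries at 55.5, 103 and 81.8 CPM. Groups of each strain did not overlap, and the log2 fold change of Col14a1 came to -1.01 (SE 0.18, edgeR adjusted p = 0.336, DESeq2 adjusted p = 5.71e-05).

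The next of the 8 lowest p-values in this direction were Itga9, an integrin subunit (-0.49), Pde3a, a cyclic nucleotide phosphodiesterase (-0.42), Aldh1a2, which makes retinoic acid (-0.94), Dkk2, a WNT modulator (-0.44), and Adra1b, an alpha-1 adrenergic receptor (-0.90). Each of the 5 had an edgeR adjusted p of 0.336 and no overlap of groups in either strain. Ak5, an adenylate kinase, had the lowest value of the 44 lower DESeq2 calls, at -1.26 (DESeq2 adjusted p = 0.00141). The 44 had a median of -0.79 (-0.74 for C57BL/6J alone and -0.70 for DBA/2J alone), and 30 of them had groups apart in both strains, against 0.405% of all genes. They were called lower on these same libraries, so these values only describe them. The DESeq2 calls themselves were not stable in number. Leaving out 1 library at a time gave 11 to 127 calls: 11 without replicate 3 of the C57BL/6J controls, 13 without replicate 1 of the DBA/2J controls, 14 and 127 without replicates 1 and 2 of C57BL/6J under cyclosporin A, 32 without replicate 1 of DBA/2J under cyclosporin A and 78 without replicate 2 of the C57BL/6J controls.

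**Figure D2:**
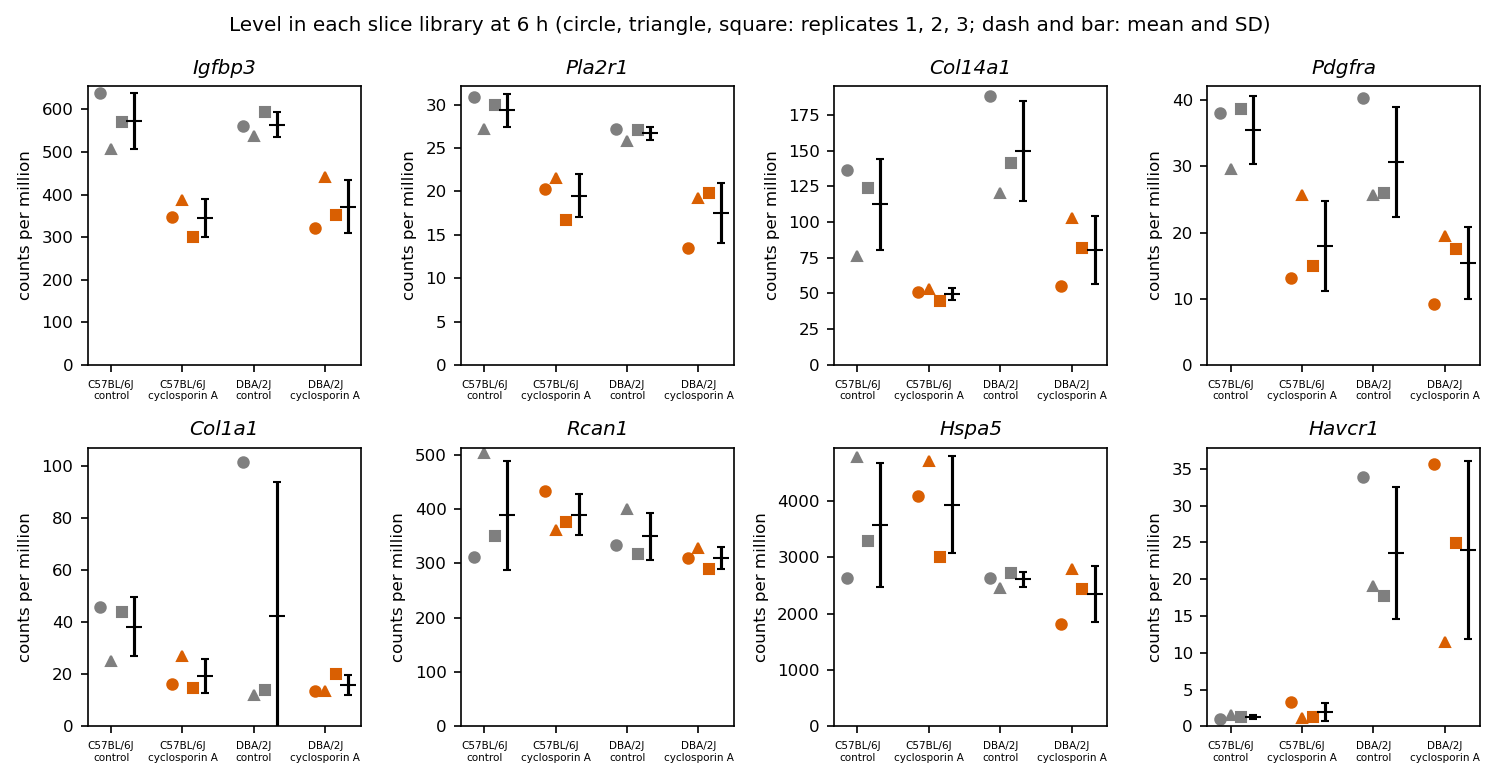
CPM (y axis) of 8 genes in each of the 12 libraries, with mean and SD of 3 beside each group (bars cut at 0). Igfbp3, Pla2r1, Col14a1 and Pdgfra have every treated library below the controls of its strain, Col1a1 has 1 high DBA/2J control at 102, and Rcan1, Hspa5 and Havcr1 overlap between treatments.

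Markers of fibroblasts, pericytes and smooth muscle were measured beside these genes, and 0 of 10 had an edgeR adjusted p under 0.05. All 10 markers of the list had a negative log2 fold change, with a median of -0.51, and 5 had an unadjusted p under 0.05, against 3.19% of all genes in that direction. In C57BL/6J 10 of 10 were negative (median -0.49), 2 of them at that threshold, against 404 of all 16538 genes. In DBA/2J 8 of 10 were negative (median -0.46), 1 of them at that threshold, against 379 of all genes. In slices, fewer cells of a type and less RNA per cell cannot be told apart. The summed level of the 10 markers was 411 to 538 CPM in C57BL/6J controls and 333 to 391 CPM under the drug, with no overlap. In DBA/2J it was 372 to 620 CPM in controls and 302 to 407 CPM under the drug, with overlap, and no marker of the list was at 0. The part of these cells in the lower genes was not tested.

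Pdgfra, a receptor of interstitial fibroblasts, was the marker with the lowest p: 38.1, 29.6 and 38.7 CPM in C57BL/6J controls against 13.1, 25.7 and 14.9 CPM, and 40.3, 25.7 and 25.96 CPM in DBA/2J controls against 9.22, 19.5 and 17.5 CPM. Over both strains Pdgfra differed by -0.96 (SE 0.22, edgeR adjusted p = 0.496, DESeq2 adjusted p = 0.00634). Pdgfrb, the pericyte receptor, differed by -0.68. Col3a1, fibrillar collagen III, differed by -0.80, and by -0.32 without replicate 1 of the DBA/2J controls. The contractile genes Acta2 and Myh11 differed by -0.07 and -0.04. Col1a1, collagen I, differed by -1.17, but replicate 1 of the DBA/2J controls held 102 CPM against 11.9 and 14.2 CPM in the other two, and without it the value was -0.32. Without that library the list median was -0.30 and 2 markers reached an unadjusted p under 0.05. The number was also 2 without replicate 1 or 3 of the C57BL/6J controls or replicate 1 of DBA/2J under cyclosporin A, and 3 without replicate 1 or 3 of C57BL/6J or replicate 2 of DBA/2J under cyclosporin A. Without replicate 2 of C57BL/6J under cyclosporin A it was 7.

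In the list of TGF-beta and matrix genes, which shares Col1a1, Col3a1, Tagln and Acta2 with the marker list, 18 of 20 were negative, with a median of -0.20. An unadjusted p under 0.05 was reached by 9, all lower, against 3.19% of all genes. In C57BL/6J 14 of 20 were negative (median -0.13) and 2 were lower at that threshold, against 404 of all 16538 genes. In DBA/2J 19 of 20 were negative (median -0.31) and 5 were lower at that threshold, against 379 of all genes. Thbs1, a matrix glycoprotein that activates latent TGF-beta, differed by -0.54 and Ccn2, connective tissue growth factor, by -0.41. Fn1, fibronectin, differed by -0.99 and Col1a2, collagen I, by -0.68, and without replicate 1 of the DBA/2J controls they differed by -0.44 and -0.31. Loxl2, a collagen cross-linking enzyme, differed by -0.35 and Col4a1, a basement membrane collagen, by -0.25. The edgeR adjusted p-values of the 9 ran from 0.605 to 1. The number fell to 4 without replicate 1 of the DBA/2J controls, replicate 3 of C57BL/6J under cyclosporin A or replicate 1 of DBA/2J under cyclosporin A.

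Endothelial markers were negative for 10 of 10, with a median of -0.20, and Kdr, the VEGF receptor, at -0.33 and Eng, endoglin, at -0.31 had an unadjusted p under 0.05, against 3.19% of all genes in that direction. The number was 7 without replicate 2 of C57BL/6J under cyclosporin A, 5 without replicate 2 of DBA/2J under cyclosporin A, 2 without replicate 1 of the C57BL/6J controls, 3 without replicate 1 of the DBA/2J controls and 1 with any 1 of the other 8 libraries left out. In C57BL/6J 8 of 10 endothelial markers were negative (median -0.13), 1 of them at that threshold, against 404 of all 16538 genes. In DBA/2J 10 of 10 were negative (median -0.33), 0 of them at that threshold, against 379 of all genes. The summed level of the endothelial markers was 2299 to 2839 CPM in C57BL/6J controls and 1903 to 2779 CPM under the drug, and 1516 to 2053 CPM against 1170 to 1800 CPM in DBA/2J, with overlap in both strains. Podocyte markers were negative for 10 of 10 with a small median of -0.07 and 0 at an unadjusted p under 0.05. In C57BL/6J 9 of 10 were negative (median -0.16), 2 of them at an unadjusted p under 0.05, against 404 of all 16538 genes, while in DBA/2J 7 of 10 were positive (median 0.05), and 2 of 10 had an unadjusted interaction p under 0.05, against 2.46% of all genes. Their sum did not overlap in C57BL/6J (2418 to 2539 CPM in controls, 2123 to 2195 CPM under the drug), and did in DBA/2J (1817 to 2070 and 1850 to 2098 CPM). Macrophage markers were positive for 10 of 10 with a median of 0.12 and 0 at that threshold. In C57BL/6J 10 of 10 were positive (median 0.24), and in DBA/2J 5 of 10 (median -0.02). Over both strains the median was 0.05 with 6 of 10 positive without replicate 2 of C57BL/6J under cyclosporin A, 0.06 without replicate 1 of the C57BL/6J controls and 0.07 without replicate 3 of DBA/2J under cyclosporin A. It was highest, at 0.17, without replicate 3 of C57BL/6J under cyclosporin A. The number higher at an unadjusted p under 0.05 was 0 to 2 with single libraries left out and 1 with all 48, against 1.25% of all genes in the full fit. Proximal tubule markers had a median of -0.06 with no fixed sign. It was 0.12 without replicate 2 of C57BL/6J under cyclosporin A, the library with the lowest sum, 0.07 without replicate 1 of the C57BL/6J controls and 0.01 without replicate 3 of the DBA/2J controls or replicate 2 of DBA/2J under cyclosporin A. It was -0.30, with 16 of 16 negative and 2 at an unadjusted p under 0.05, without replicate 3 of C57BL/6J under cyclosporin A, and -0.14 without replicate 2 of the C57BL/6J controls.

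Lymphocyte markers were scarce, with a sum of at most 14.7 CPM in any library. Of 9 tested, Cd3e, a T cell receptor chain, and Cd8a, the coreceptor of cytotoxic T cells, were lower at an unadjusted p under 0.05 over both strains, against 3.19% of all genes in that direction. The strains differed in sign for Cd8a, at 0.32 in C57BL/6J and -1.50 in DBA/2J, and Cd3e differed by -0.07 and -0.96. The number was 0 without replicate 3 of C57BL/6J under cyclosporin A and with all 48 libraries. It was 1 without replicate 1 or 3 of the DBA/2J controls, replicate 1 or 2 of C57BL/6J under cyclosporin A, or replicate 1 or 3 of DBA/2J under cyclosporin A. Cd3e over both strains was -0.51, and -0.29 without replicate 2 of the C57BL/6J controls. In DBA/2J Cd3e was at 2.51, 2.90 and 2.63 CPM in controls and 1.46, 1.47 and 1.14 CPM under the drug, while the C57BL/6J groups overlapped. Collecting duct principal cell markers were positive for 9 of 10 over both strains, for 5 of 10 in C57BL/6J (median 0.01) and for 9 of 10 in DBA/2J (median 0.17). At an unadjusted p under 0.05, against 1.25% of all genes, 2 were higher, with 1 left without replicate 2 of C57BL/6J under cyclosporin A and 0 with all 48 libraries. These were the water channel Aqp4 at 0.91 and the transcription factor Elf5 at 0.90, which reached at most 4.71 and 2.14 CPM in any library. Aqp6, a water channel of intercalated cells, was the 1 of 10 members of the intercalated cell list past an unadjusted p of 0.05, against 1.25% of all genes, at 0.47. Its C57BL/6J groups were apart, at 58.4 to 86.2 CPM in controls and 93.3 to 135 CPM under the drug. In DBA/2J the controls at 40.4 to 57.3 CPM and the treated libraries at 57.2 to 61.2 CPM met at the edge, and they were apart only after TMM scaling.

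**Figure D3:**
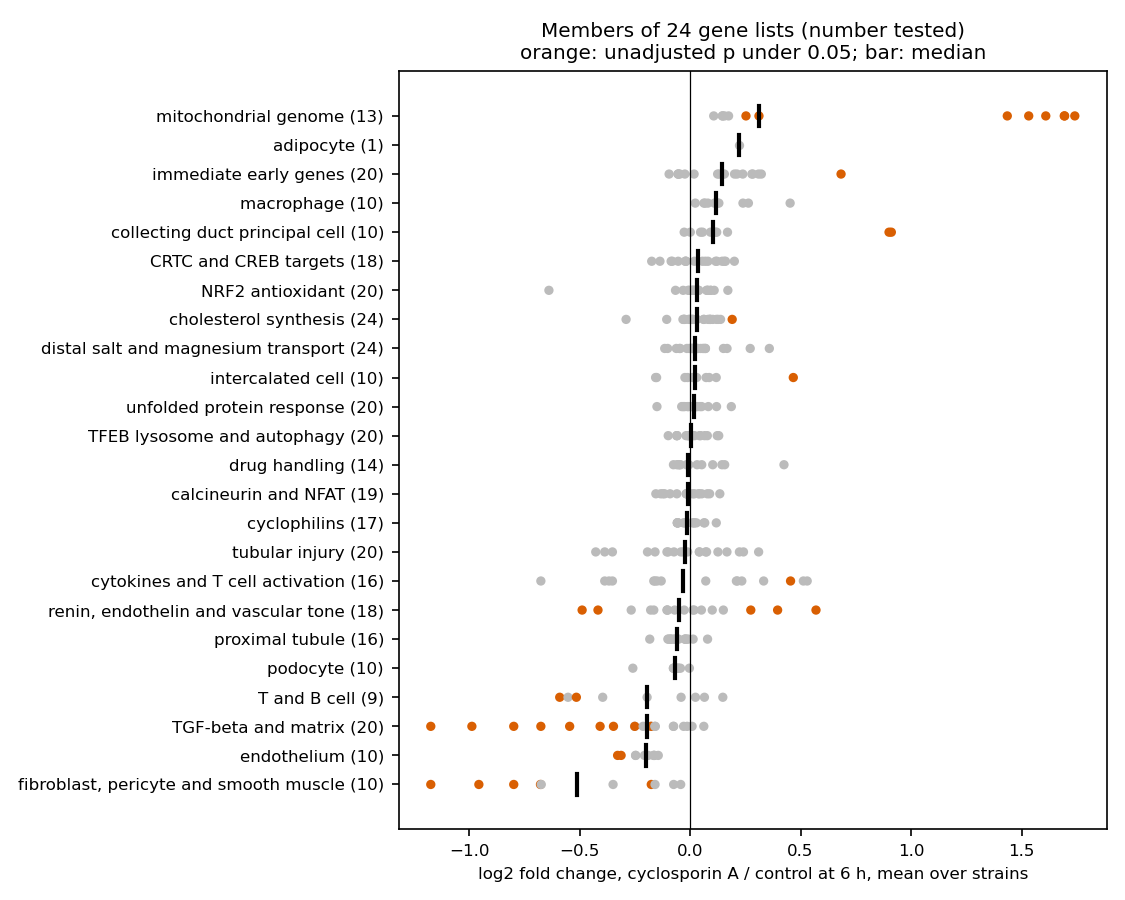
Log2 fold change over both strains (x axis) of every tested member of the 24 gene lists (rows, with the number tested), sorted by the list median (bar). Orange points have an unadjusted edgeR p under 0.05; the fibroblast, pericyte and smooth muscle list lies at the lower end with a median of -0.51 and the mitochondrial genome at the upper end with 0.31.

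Of the 8 genes named for the smallest p among those with higher levels, where predicted genes and pseudogenes were passed over, 4 were mitochondrial: mt-Atp8, mt-Co2, mt-Nd4l and mt-Co3. Gm13340, a gene with a predicted name that was passed over, differed by 0.58 (SE 0.12, edgeR adjusted p = 0.363, DESeq2 adjusted p = 0.00825). It was at 4.42, 5.07 and 5.02 CPM in C57BL/6J controls and 6.67, 5.62 and 6.16 CPM under the drug, and at 5.34, 4.09 and 3.32 CPM in DBA/2J controls and 6.89, 7.61 and 7.26 CPM under the drug, with groups apart in both strains. All 13 protein-coding members were positive, with a median of 0.31, and 8 had an unadjusted p under 0.05, against 1.25% of all genes in that direction. By strain 6 members passed that threshold in C57BL/6J, against 246 of all 16538 genes higher there, and all 13 were positive. In DBA/2J 0 passed it, against 109 of all genes, while 12 were positive and mt-Nd6 was at -0.10. The share of counts in mitochondrial genes was 15.4% ± 0.78 for C57BL/6J controls and 16.6% ± 1.4 under the drug, and 8.16% ± 0.15 and 9.13% ± 0.84 in DBA/2J (SD, n = 3). The mean difference over strains of 1.1 percentage points had an exact stratified two-sided permutation p of 0.05, where the smallest possible was 0.005. A set of 5 genes, mt-Co2, mt-Co3, mt-Atp6, mt-Atp8 and mt-Nd4l, differed by 1.53 to 1.74, and the highest level of any of them in any library was 63.5 CPM. mt-Nd3 was at or near 0 in DBA/2J, so its fitted mean of 1.44 over strains depends on those few counts, and it moved to 2.71 without replicate 1 of the DBA/2J controls. In C57BL/6J alone mt-Nd3 differed by 1.52. The other 7 differed by at most 0.31. Of these mt-Nd6 was also low, at 14.8 to 47.9 CPM, and differed by 0.15.

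The abundant members were measured precisely. mt-Cytb, of complex III, ran from 26388 to 60099 CPM and differed by 0.11 (-0.09 to 0.30). mt-Co1, of complex IV, differed by 0.17 (-0.07 to 0.42), mt-Nd1 by 0.25 and mt-Nd2, both of complex I, by 0.31. By contrast mt-Co2, also of complex IV, was at 5.93, 10.8 and 7.24 CPM in C57BL/6J controls and at 63.5, 25.6 and 20.1 CPM under the drug. In DBA/2J it was at 4.29, 5.28 and 3.32 CPM in controls and at 3.30, 10.02 and 12.3 CPM under the drug, with overlap. The log2 fold change of mt-Co2 came to 1.61 (SE 0.36, edgeR adjusted p = 0.457, DESeq2 adjusted p = 0.0251), and 1.28 without replicate 1 of C57BL/6J under cyclosporin A.

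Copies of mitochondrial genes lie in the nuclear genome, so sequence sharing was measured. The mitochondrial transcripts in GENCODE M21 were cut into 50-base words and looked up in all transcripts of nuclear genes. For mt-Co2 100% of the words occurred there, for mt-Co3 99.9%, for mt-Atp6 99.5%, for mt-Nd4l 98.8% and for mt-Nd3 98.0%, each with its closest copy in a different unprocessed pseudogene of chromosome 1, all between 24612407 and 24615565. For mt-Atp8 the share was 0%. Among the other 7 it was 62.2% for mt-Nd4, 51.1% for mt-Co1, 8.2% for mt-Nd2, 7.6% for mt-Nd5 and 0% for mt-Nd1, mt-Nd6 and mt-Cytb. Only annotated transcripts were searched, so these shares, also the 0% of mt-Atp8, count no copy elsewhere in the nuclear genome. Reads that fit a mitochondrial gene and a nuclear copy equally well cannot be assigned by counting, and how they were treated is not given in the sources used here, so the folds of the 5 genes that share nearly all words are uncertain. mt-Atp8 overlaps mt-Atp6 in the annotation, and nuclear copies of it outside annotated transcripts were not searched, so it is uncertain too.

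The sequence of mt-Nd4l (chrM:9877-10173, plus strand, GRCm38) is shown because nearly all of it recurs in the nuclear pseudogene Gm10222 (chromosome 1, 24612407 to 24612700). Capitals mark the 3 of its 297 bases that lie in no shared 50-base word.
mt-Nd4l: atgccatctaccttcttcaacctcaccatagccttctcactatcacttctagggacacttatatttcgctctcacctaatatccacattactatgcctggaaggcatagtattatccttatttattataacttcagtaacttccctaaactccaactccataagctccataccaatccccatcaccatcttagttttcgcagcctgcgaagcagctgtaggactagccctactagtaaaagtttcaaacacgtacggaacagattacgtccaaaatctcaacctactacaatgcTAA
mt-Nd4l was at 1.17, 1.63 and 0.724 CPM in C57BL/6J controls and at 10.9, 5.84 and 3.70 CPM under the drug. In DBA/2J it was at 0.594, 0.776 and 0.172 CPM in controls and at 0.340, 1.09 and 1.52 CPM under the drug, and Gm10222 did not pass 0.735 CPM in any library. For mt-Nd3 the strains stood apart: it ran from 1.51 to 8.88 CPM in C57BL/6J and reached at most 0.142 CPM in DBA/2J, while its nuclear copy Gm28438 reached at most 0.321 CPM in C57BL/6J and ran from 1.04 to 3.10 CPM in DBA/2J.

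**Figure D4:**
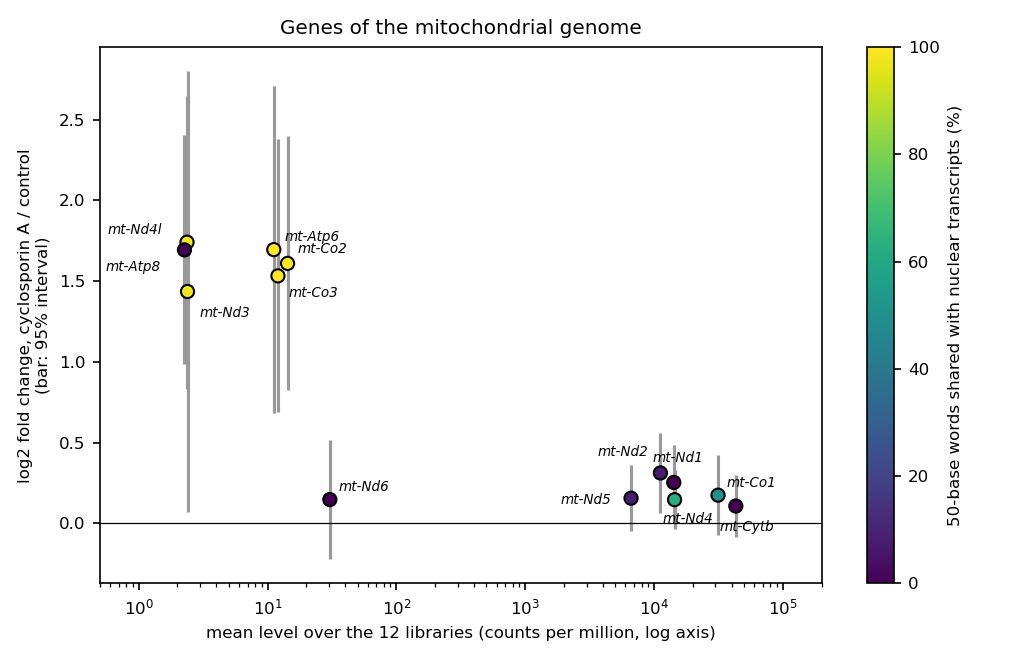
Log2 fold change over both strains with its 95% interval (y axis) against mean level over the 12 libraries (x axis, log scale) for the 13 protein-coding mitochondrial genes, coloured by the share of 50-base words found in annotated nuclear transcripts. The 6 genes at 1.44 or above sit at the low end of the level axis, where mt-Nd6 at 0.15 also lies, and 5 of the 6 share 98.0% to 100% of their words.

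The other 4 of the 8 were nuclear genes. Slc22a13, an organic anion transporter, was at 1.12, 1.80 and 1.81 CPM in C57BL/6J controls and at 7.96, 5.79 and 5.39 CPM under the drug, while its DBA/2J groups overlapped (3.16 to 9.04 and 5.34 to 11.7 CPM). Muc20, a mucin of epithelia, differed by 0.80 (SE 0.19, edgeR adjusted p = 0.506, DESeq2 adjusted p = 0.0240). Serpina1f, of the alpha-1-antitrypsin family, was at 0.559, 4.06 and 2.17 CPM in C57BL/6J controls and at 12.9, 16.2 and 8.88 CPM under the drug. In DBA/2J it lay at or near 0 in controls, so no fold is given there, and members of this family have close copies that could share reads. Ccnb1ip1, a ubiquitin ligase, differed by 0.52 (SE 0.13, edgeR adjusted p = 0.529).

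By strain the test called no gene with all 12 libraries. In C57BL/6J 0 genes had an edgeR adjusted p under 0.05, with 650 (3.93%) at an unadjusted p under 0.05, and in DBA/2J 0, with 488 (2.95%). Without replicate 3 of C57BL/6J under cyclosporin A edgeR called 3 in C57BL/6J, Cxcl2, Muc20 and mt-Atp8 (adjusted p = 0.0372 each). DESeq2 called 19 genes in C57BL/6J (0.115%), 14 of them higher, and 0 in DBA/2J. The 19 became 1 without replicate 1 of C57BL/6J under cyclosporin A, 3 without replicate 1 or 3 of the C57BL/6J controls, 69 without replicate 2 of those controls and 42 without replicate 1 of DBA/2J under cyclosporin A. Without replicate 2 of C57BL/6J under cyclosporin A there were 21, of which 4 were higher, so the balance of directions turned. The interaction gave 0 genes by edgeR, by limma-voom and by DESeq2, with 407 (2.46%) at an unadjusted p under 0.05 in edgeR, so no strain difference in response was shown. Its 95% interval lay within 2-fold for 67.3% of genes. The effects of the strains had a Pearson correlation of 0.10 and a Spearman correlation of 0.001 across the 16538 genes, which are not independent replicates and differ in depth. The 3 genes with the smallest interaction p were Cxcl2, mt-Atp8 and Mettl7a2. Cxcl2, a neutrophil-attracting chemokine, was at 8.33, 10.9 and 7.81 CPM in C57BL/6J controls and 20.3, 23.7 and 11.5 CPM under the drug, and at 60.01, 55.2 and 57.01 CPM in DBA/2J controls and 51.2, 39.3 and 37.7 CPM under the drug. mt-Atp8 differed by 3.06 in C57BL/6J and 0.32 in DBA/2J, and Mettl7a2, a methyltransferase-like gene, by 1.63 and -0.61. In DBA/2J alone the smallest p-values were those of Pla2r1, Pde3a and Irf8, an interferon regulatory factor of myeloid cells, which differed by -0.58 there and by -0.20 in C57BL/6J.

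The libraries at 24 h, which share no library with those at 6 h, were read for the same genes. Of the 44 genes called lower by DESeq2 at 6 h, 39 were also lower at 24 h, with a median log2 fold change of -0.18, and 4 had an unadjusted p under 0.05 in that direction. Over the 15786 genes tested at both times, 7348 were lower at 24 h, with a median of 0.01, and 553 were lower at an unadjusted p under 0.05. The effect at 24 h differed from that at 6 h at an unadjusted p under 0.05 for 22 of the 44, against 702 of all 16538 genes. The 44 were chosen by their values at 6 h, which enter this difference, so that count is a description. Igfbp3 differed by -0.26 at 24 h, Col14a1 by -0.42 and Pla2r1 by -0.19, none at an unadjusted p under 0.05. All 7 genes called higher at 6 h had a positive value at 24 h, with a median of 0.56. The fibroblast, pericyte and smooth muscle markers had a median of -0.03 at 24 h, and the mitochondrial genes -0.02. Across genes the effects of the times had a Pearson correlation of 0.06 and a Spearman correlation of 0.05, given as a description. The test of the 24 h effect minus the 6 h effect gave 0 of 17775 genes by edgeR, with 769 (4.33%) at an unadjusted p under 0.05, and 0 by DESeq2.

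**Figure D5:**
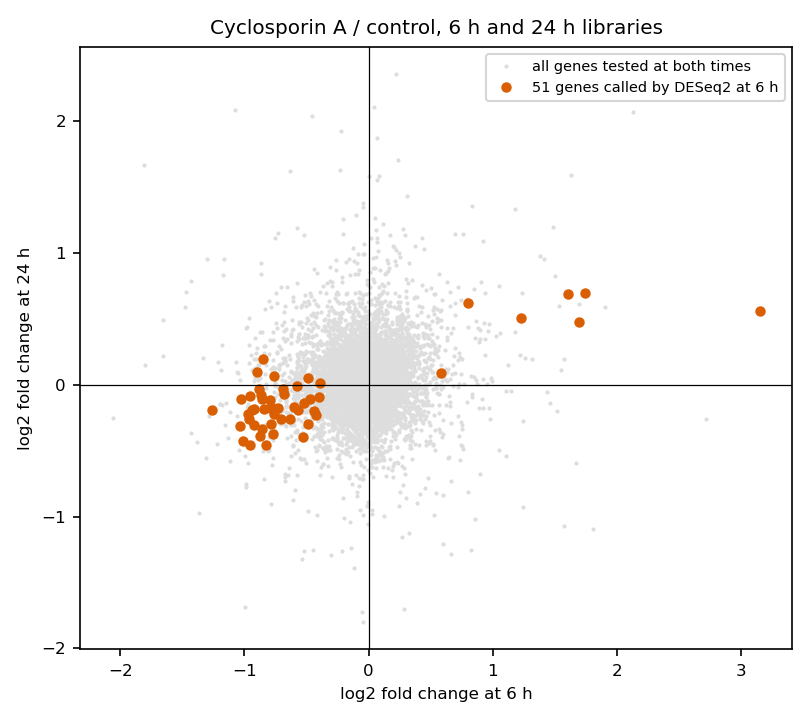
Log2 fold change of cyclosporin A over control at 24 h (y axis) against 6 h (x axis), mean over strains. Grey points are the 15786 genes tested at both times and orange points the 51 genes called by DESeq2 at 6 h, of which 39 of the 44 lower ones lie below 0 at 24 h.

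Cyclosporin A was also set directly against tunicamycin at 6 h, an inhibitor of N-glycosylation, without control libraries. By edgeR 0 of 16600 genes differed, with 380 (2.29%) at an unadjusted p under 0.05, and DESeq2 gave 0. For the 44 lower genes the median was -0.79 against controls, -0.39 against tunicamycin, and -0.33 for tunicamycin against the same controls, with 44 of 44 negative in each. Over all genes tested the last 2 medians were 0.006 and -0.004. The 3 values of the 44 share libraries in pairs and are given side by side only. The 44 were chosen on cyclosporin A and control libraries that enter these values. For the fibroblast, pericyte and smooth muscle list the same 3 medians were -0.51, -0.25 and -0.06, and for the mitochondrial genome 0.31, 0.22 and 0.11.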

How the data were processed

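RNA-seq libraries of mouse kidney slices were analysed from 1 table of counts that the authors deposited without normalization. Per the submitters' processing notes, bcl2fastq 2.20.0, FastQC 0.11.8, STAR 2.7.9a, featureCounts 1.5.1 and the build GRCm38 were used. Per the labels' protocols the kit was stranded; strand setting, annotation release and handling of multiply mapped reads are not given in the sources used here. Groups and replicate numbers came from the labels, and symbols from a name table that matched 55141 of 55487 IDs. Coordinates are those of GENCODE M21.

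Counts of the 12 libraries were fitted with edgeR 4.0.16 (R 4.3.3) by a quasi-likelihood model with a mean for each of 4 groups, TMM factors, the default filter by group and 8 residual degrees of freedom. Benjamini-Hochberg adjustment covered all genes tested, at a threshold of 0.05. Standard errors came from the F statistic, and 95% intervals from the moderated degrees of freedom. Log2 fold changes are cyclosporin A over control; CPM uses the total count. The scripts were tested on simulated data. Named genes were 20 fixed ones, the 8 lowest p-values with a mean log2 CPM of at least 1 in each direction, 3 per strain and interaction (predicted genes with Gm or RIKEN names and pseudogenes passed over in these and in the next), the leading DESeq2 1.42.0 calls, and list members at an unadjusted p under 0.05; any other gene was named after its values were seen. Comparison, lists and rules were chosen with earlier results of these data known. No 2 libraries of a group were identical or within sampling noise (chi-square per degree of freedom at least 8.77). Alternatives were other scaling, no filter, more libraries, a replicate block, no mitochondrial genes, limma-voom (limma 3.58.1), DESeq2, an additive model and each library left out.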

Additional observations from a re-analysis of the deposited data

Results flagged for a closer look

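Cxcl2 was noted because its treated libraries lay above all controls in C57BL/6J and below all controls in DBA/2J. Its effect in DBA/2J minus that in C57BL/6J was -1.47 on the log2 scale, and the interaction had an edgeR adjusted p of 1 over all genes.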

How the results depend on the processing

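Of 172 values of the counts and bounds under the alternatives, 152 kept within 1.5 times. Without the filter edgeR called 4 genes over both strains (Igfbp3, Pla2r1, Itga9 and Peg3) and 1 in C57BL/6J (mt-Atp8); with 18 or 48 libraries it called 1 or 2 in C57BL/6J. Leaving out single libraries gave 0 to 1 over both strains and 0 to 3 in C57BL/6J by edgeR, and 11 to 127 and 1 to 69 by DESeq2, where the full data gave 51 and 19; these DESeq2 fits were chosen after seeing the data. The number of genes bounded within 2-fold stayed within 1.5 times of 14755 under all alternatives run.

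The replicate number as a block gave 0 edgeR calls over both strains, in each strain and in the interaction, 1 call against tunicamycin (Aqp1), and 43 over both strains by DESeq2, with 26 of the 44 lower DESeq2 genes still called and 18 not. Same-numbered libraries had correlated deviations over 0.1 in 3 of 6 pairs. The mean correlation was 0.13 for the 6 pairs and -0.07 for other pairings. In DBA/2J the same-numbered pairs were at 0.08, 0.17 and 0.17, and other pairings ran from -0.14 to -0.03. In C57BL/6J the same-numbered pairs were at -0.04, 0.35 and 0.08, and other pairings ran from -0.44 to 0.40. Whether same-numbered slices came from 1 mouse was not tested, and the full fit did not use the numbers as pairs. Under the block 2 fibroblast, 4 TGF-beta and matrix, 7 endothelial and 2 tubular injury genes were lower at an unadjusted p under 0.05, beside 587 of all 16538 genes; without the filter these were 2, 4, 1 and 0, beside 668 of 30778. The block also gave 3 immediate early genes higher, 3 vascular tone genes higher and 4 lower, and 2 cytokine genes higher and 2 lower. Over all 16538 genes it gave 241 higher and 587 lower.

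Some signs turned, those of Abcb1a, Havcr1, Lcn2 and Ren1 from full-data values of 0.14, 0.31, 0.22 and -0.27. Abcb1b was 0.0006 with 48 libraries and 0.0035 by limma-voom, and Nfatc1 -0.0017 with the block and -0.001 in an additive model. With single libraries left out the log2 fold change ran from -0.0405 to 0.3139 for Abcb1a, -0.1517 to 0.1561 for Abcb1b, -0.0855 to 0.094 for Ddit3, -0.0056 to 0.4909 for Havcr1, -0.0806 to 0.3185 for Hmox1, -0.0691 to 0.1708 for Hspa5, -0.1899 to 0.8924 for Lcn2, -0.0502 to 0.0455 for Nfatc1, -0.1217 to 0.1796 for Pck1, -0.084 to 0.0158 for Ppif, -0.1316 to 0.0673 for Rcan1 and -0.5314 to 0.0054 for Ren1. List medians with single libraries left out also changed sign for calcineurin and NFAT (-0.02 to 0.02), cyclophilins (-0.02 to 0.02), TFEB (-0.02 to 0.03), cholesterol synthesis (-0.01 to 0.06) and renin, endothelin and vascular tone (-0.09 to 0.01). The cause was not tested. Genes under a mean log2 CPM of 1 were bounded within 2-fold in 54.1% of cases, which limits what can be said of low genes.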
